A study of Drosophila melanogaster with 4 samples.

Results

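The γH2AvD landscape of WT S2 cells comprised 297 genomic regions called in the WT γH2AvD ChIP library against the WT input library, out of 1929 regions in the 3 region lists of the study. All regions of that list were taken, with no further selection. γH2AvD was mapped by chromatin immunoprecipitation with sequencing (ChIP-seq) in S2 cells, an established cell line derived from Drosophila melanogaster embryos. One pair of libraries, ChIP and input, came from cells depleted of dH1, the linker histone of the fly, by 100 µg of double-stranded RNA added at days 1, 4 and 7 of 8 days of culture (dH1 RNAi), and the other pair came from WT cells. All 4 used 10 ng of DNA and 15 PCR cycles, and each group had 1 library of 1 cell line. The labels call the cells WT, name no control double-stranded RNA, and attach the same text on dH1 double-stranded RNA to all 4 libraries, so WT is used here as the labels give it. The level of dH1 is not given for either group.

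H2Av is the H2A variant of Drosophila and serves both as the counterpart of mammalian H2A.Z and as that of H2A.X. Kinases of the ATM and ATR type phosphorylate a serine in its tail around DNA breaks and stalled replication forks, and the phosphorylated form, γH2AvD, is used as a mark of DNA damage. In a population of growing cells without added damage, the mark is taken to report breaks and replication problems of normal growth. Regions near the centromeres, the small chromosome 4 and the Het scaffolds of the assembly are rich in repeated sequence and are packaged largely as heterochromatin.

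The WT regions spread over 12 sequences of the dm3 assembly, and the authors deposited ChIP and input read counts for each. These counts are not scaled to library depth, which is unknown here. The ChIP to input ratio below therefore ranks regions within the WT library pair and has no absolute level. With 1 library of each kind there is no replicate error and no test. The 95% intervals given for shares and for the ratios of single regions are exact, and they cover counting error only. More cells carrying the mark at a place and more of the mark per cell cannot be told apart in these data. No dm3 gene annotation was used here, so regions are given by position, counted from 1, and not by gene.

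The typical WT region was about 1 kb wide and had between 2 and 4 ChIP reads per input read. ChIP reads ranged from 107 to 815 with a median of 239 (interquartile range 192 to 338), and input reads ranged from 29 to 551 with a median of 94 (73 to 115). The ratio had a median of 2.65 (1.93 to 3.85) and lay between 1.10 and 6.29. A ratio of at least 4 was found at 65 of the 297 regions, 21.9%. Together the regions covered 321.9 kb.

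The lowest ratio in the list depended on the input count, which sets how the ratios can be read. Among the 17 regions with at most 50 input reads the lowest ratio was 2.48. It was 1.97 among the 62 regions with over 50 to 75 input reads and 1.57 among the 71 with over 100 to 125. Among the 7 regions with over 200 input reads the ratios ran from 1.10 to 1.42. Regions thus had to stand higher above input where input was low, and the ratios of chromosome 4, the Het scaffolds, the proximal 1 Mb and X are set beside those of the autosomal arms also at matched input counts below. Other comparisons of ratios are not matched.

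**Figure D1:**
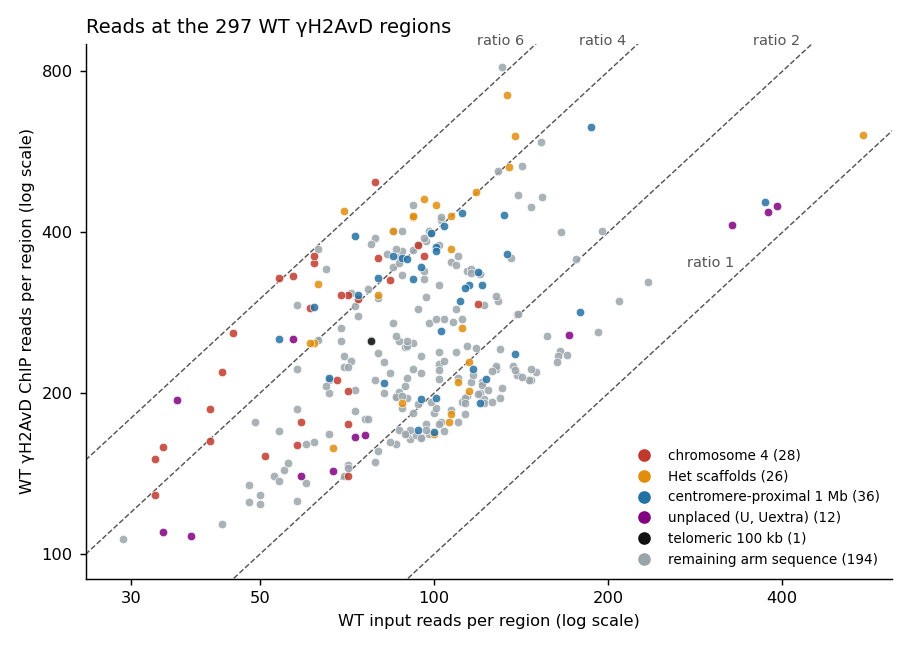
WT γH2AvD ChIP reads (vertical axis, log scale) against WT input reads (horizontal axis, log scale) for each of the 297 WT regions, coloured by sequence class, with dashed lines at ratios of 1, 2, 4 and 6. The lower edge of the cloud moves to lower ratios as input rises, chromosome 4 regions lie at the low-input side with a median ratio of 4.17, and 7 regions with over 200 input reads stand apart at ratios up to 1.42.

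Chromosome 4 was the most densely marked sequence of the assembly. It held 28 regions, 20.7 per Mb, and they covered 2.37% of its length, against 0.931% of the centromere-proximal 1 Mb of the arms, 0.384% of the Het scaffolds and 0.173% of the remaining arm sequence. The regions lay along most of the chromosome, with the outermost at 63851 to 65050 and at 1234001 to 1234900, and the longest stretch between neighbours was 158.9 kb. The median gap was 24.8 kb (interquartile range 7.55 to 69.7, 27 gaps). Of the 28 regions, 24 lay within 50 kb of another WT region, against 44.8% of the whole list. This share goes with the density given above. It was not set against random placement, so it is no separate sign of clustering.

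Regions of chromosome 4 also had high ratios. The ratio was at least 4 at 16 of the 28 (57.1%, 37.2 to 75.5), against the 21.9% of the whole list. The highest ratio of the WT list was at 1047201 to 1048650 of chromosome 4, with 497 ChIP and 79 input reads (6.29, 4.95 to 8.08), and another of the 5 highest was at 887151 to 888300, with 329 and 54 (6.09, 4.56 to 8.28). At 379851 to 381050 the counts were 361 in ChIP and 62 in input (5.82, 4.44 to 7.75). The region next to it, at 379151 to 379750, was 100 bp away, with 140 ChIP and 71 input reads (1.97, 1.47 to 2.66). This was the closest pair of the WT list, and it held the chromosome's lowest ratio beside one of its highest.

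Chromosome 4 stood apart more in input than in ChIP reads. Its regions had a median of 62 input reads (interquartile range 49.5 to 71.75). In the remaining sequence of the autosomal arms the median was 101 (86 to 122). The ChIP counts overlapped, with a median of 274 (172 to 329.5) on chromosome 4 against 230.0 (193 to 319). At matched input of at most 50 reads, 7 chromosome 4 regions had a median ratio of 4.58, and 3 regions of the autosomal arms had 2.60. With over 50 to 75 input reads the medians were 4.05 at 15 chromosome 4 regions and 3.03 at 19 autosomal arm regions. With over 75 to 100 input reads the medians were 4.02 at 5 chromosome 4 regions and 2.75 at 58 autosomal arm regions. Only 1 chromosome 4 region had more input. The higher ratios of chromosome 4 were thus also seen in each of these input intervals, on few regions. The part of copy number in the low input of chromosome 4 was not tested.

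The Het scaffolds, heterochromatic pieces of the assembly that could not be joined to the arms, held 26 regions in all, on 4 of the 6 scaffolds. Their input was like that of the autosomal arms, with a median of 103.5 reads against 101, and their ChIP counts were higher, with a median of 346.5 against 230.0. The ratio was at least 4 at 13 of the 26 (50%, 29.9 to 70.1). At matched input the size of the difference varied. With over 50 to 75 input reads, 5 Het regions had a median ratio of 4.07 and 19 autosomal arm regions 3.03, and with over 75 to 100 the medians were 4.64 at 7 Het regions and 2.75 at 58 autosomal ones. With over 100 to 125 they were 2.18 at 10 and 2.06 at 43, and with over 125 to 200 they were 4.39 at 3 and 1.74 at 36. Of the 10 regions to which the caller gave its lowest false discovery rate, 0.001, 4 lay on Het scaffolds, 2 on chromosome 4, 1 in centromere-proximal sequence and 3 in the remaining arm sequence. In the whole list these classes held 8.75%, 9.43%, 12.1% and 65.3% of the regions, in the same order.

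The scaffolds held unequal shares of strong regions, with median input counts of 107 reads on 3LHet, 92 on 2RHet and 103 on 3RHet. All 9 regions of 3LHet had ratios between 2.37 and 5.08, and 7 of them reached at least 4. On 2RHet 4 of 9 did, with the highest at 197051 to 199200, where 439 ChIP and 70 input reads gave 6.27 (4.86 to 8.19). On 3RHet only 1 of 6 did, at 1898551 to 1899800 (4.67, 3.72 to 5.92), and the median ratio there was 1.84. The scaffold 2LHet held 2 regions, at ratios of 5.39 and 1.71. The counting intervals of these shares are wide and overlap, from 40.0 to 97.2% for 3LHet and from 0.421 to 64.1% for 3RHet.

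A tight group of strong regions lay on 3LHet. Within 14.6 kb, between 592951 and 607550, there were 3 regions with ratios of 5.08, 3.92 and 4.81, and ChIP counts of 320, 529 and 462. All of them were called again after dH1 RNAi, that is, they overlapped a region of that list, as did 72.4% of all WT regions. Another strong 3LHet region, at 1395901 to 1397900, had 606 ChIP and 138 input reads (4.39, 3.64 to 5.32). The widest region of the list was on 2LHet, 2950 bp at 32351 to 35300, with 722 ChIP and 134 input reads (5.39, 4.48 to 6.53) and its summit 725 bp from the start.

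Along the arms the density of WT regions was high over the 2 Mb next to the centromere and not only over the proximal 1 Mb. Counted over arms 2L, 2R, 3L, 3R and X, there were 36 regions in the proximal 1 Mb, 7.2 per Mb, and 35 between 1 and 2 Mb, 7 per Mb. Beyond that there were 1.73 per Mb from 2 to 5 Mb, 1.88 from 5 to 10 Mb and 1.26 farther out. The median ratio was 3.04 in the proximal 1 Mb, 2.78 between 1 and 2 Mb, 2.21 from 2 to 5 Mb, 2.65 from 5 to 10 Mb and 2.31 farther out, so it did not fall steadily with distance. The median input was between 94 and 101 reads in all of these intervals. On 2R the proximal 1 Mb had a median ratio of 2.30, against 2.28 in the rest of the arm, and on 2L it had 3.05, against 2.31. At matched input of over 50 to 75 reads, 5 regions of the proximal 1 Mb had a median ratio of 4.68, against 3.03 at 19 regions of the remaining autosomal arms. With over 75 to 100 reads the medians were 3.62 at 11 proximal regions and 2.75 at 58 autosomal arm regions. With over 100 to 125 reads they were 2.72 at 14 and 2.06 at 43, and with over 125 to 200 reads 2.72 at 5 and 1.74 at 36.

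The arms did not share this profile equally. Arm 2R held 12 regions in its proximal 1 Mb and 17 in the next, arm 2L held 14 and 8, arm 3R 6 and 4, and arm 3L 3 and 6. Arm X held 1 region in the whole of its proximal 2 Mb. Beyond 2 Mb arm 2R still had the highest density, 2.14 regions per Mb, and arm 3L the lowest, 1.06 per Mb. The single proximal X region, of 1400 bp, had a ratio of 4.69 from 253 ChIP and 54 input reads.

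**Figure D2:**
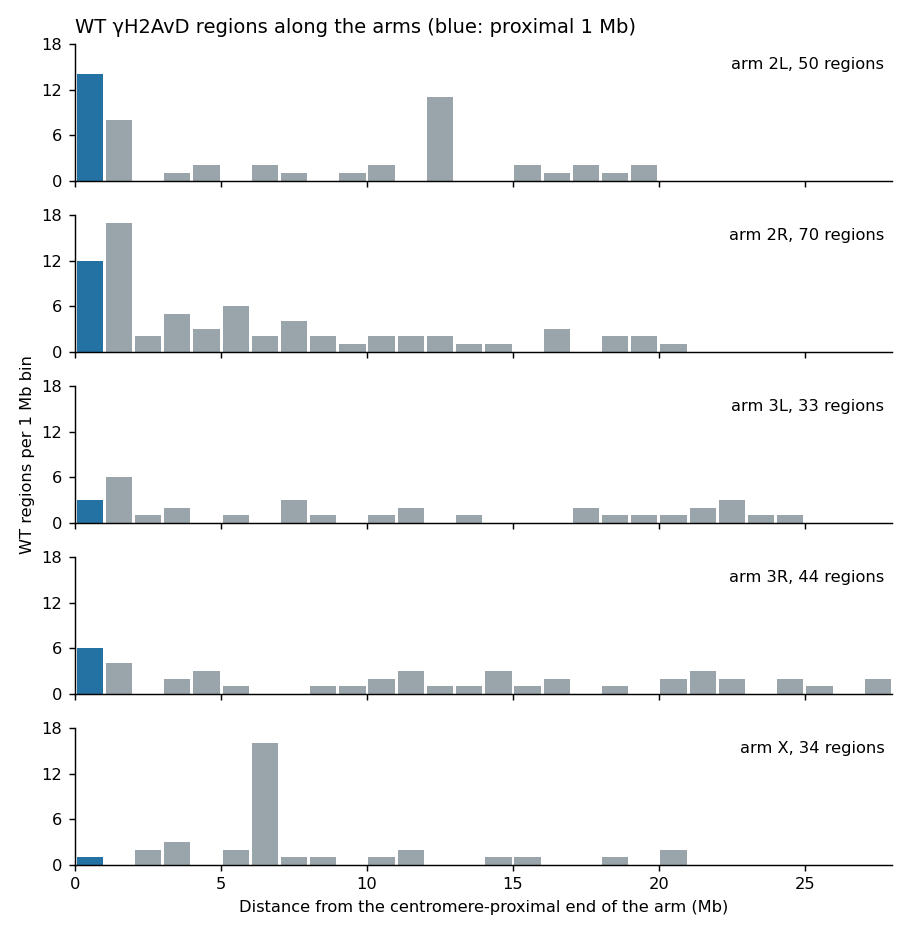
Number of WT γH2AvD regions in each 1 Mb bin (vertical axis) by distance from the centromere-proximal end of the arm in Mb (horizontal axis), 1 panel for each arm, with the proximal 1 Mb in blue. Counts are high in the 2 bins nearest the centromere on 2L and 2R, and isolated bins of 11 regions on 2L and 16 on X lie far from it.

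Away from the centromeres the 1 Mb bins with the most regions were on X and on 2L. Shorter dense runs lay elsewhere, such as 4 regions within 45.65 kb on 2R and 3 within 15.5 kb on 3R. On X, 11 regions lay between 15751451 and 15886550, the largest cluster of the list at a linking distance of 50 kb, with a median gap of 4.95 kb. The 1 Mb bin that holds this cluster had 16 of the 34 regions of X. Ratios in the cluster ran from 1.76 to 4.16 with a median of 2.81, and its strongest member, at 15783651 to 15785000, had 428 ChIP and 103 input reads (4.16, 3.34 to 5.20). Input in the cluster ran from 48 to 109 reads, with a median of 87 against 72 for all of X. The cluster was thus a dense run of regions with ratios near the median of the list.

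On 2L, 4 regions between 10207101 and 10279250 and 5 between 10338851 and 10439800 formed neighbouring clusters, and the 1 Mb bin that holds them had 11 regions. Their ratios were mostly low, with medians of 2.11 and 1.97. The strongest, at 10422201 to 10423600, had 370 ChIP and 92 input reads (4.02, 3.19 to 5.11). Before this stretch by coordinate, between 7426801 and 10207100, lay the longest part of 2L between neighbouring regions, 2.78 Mb.

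The largest clusters near the centromere of 2R had stronger members. The other clusters in the proximal 2 Mb of 2R, of 4, 2 and 2 regions, had highest ratios of 3.95, 1.82 and 1.74. Between 1138001 and 1251150 there were 7 regions with a median ratio of 4.10, and 4 of them reached at least 4. The highest was at 1180701 to 1182000, with 402 ChIP and 85 input reads (4.73, 3.73 to 6.05). A second cluster of 6, between 1491801 and 1589900, had ratios from 1.86 to 4.89. Its strongest member at 1584551 to 1585800 had 450 ChIP and 92 input reads and was 3.10 kb from a region with a ratio of 2.18. All 6 of these regions, and 6 of the 7, were called again after dH1 RNAi, against 72.4% of the whole list.

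Linking regions with gaps of at most 50 kb gave 44 clusters with 133 regions, 44.8% of the list (39.0 to 50.6). Of these clusters 25 were pairs, and 19 had 3 or more regions, 83 regions in all. Chromosome 4, the most densely marked sequence, held 5 of the 19. Clustering beyond what the density of a sequence gives was not tested. The share depended on the linking distance: it was 23.2% at 10 kb, 58.9% at 100 kb and 70.4% at 200 kb. Clustered regions had a median ratio of 2.83 (2.02 to 4.00), against 2.50 (1.87 to 3.54) for single regions, and 35 of 133 reached at least 4, against 30 of 164.

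The gaps between neighbours ran from 100 bp to several Mb. Over the whole list the median gap was 136 kb (interquartile range 32.0 to 720.6, 285 gaps). Without the unplaced sequences U and Uextra there were 275 gaps, of which 23 were at most 5 kb and 43 exceeded 1 Mb. Within classes the median gap was 24.8 kb on chromosome 4, 56.6 kb in centromere-proximal sequence, 112 kb on the Het scaffolds and 291 kb in the remaining arm sequence. In the remaining arm sequence the lower quartile of the gaps was 34.9 kb, so close neighbours were present there too. Positions on U and Uextra are those of joined pieces of unplaced sequence, so gaps there are not distances in the genome.

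**Figure D3:**
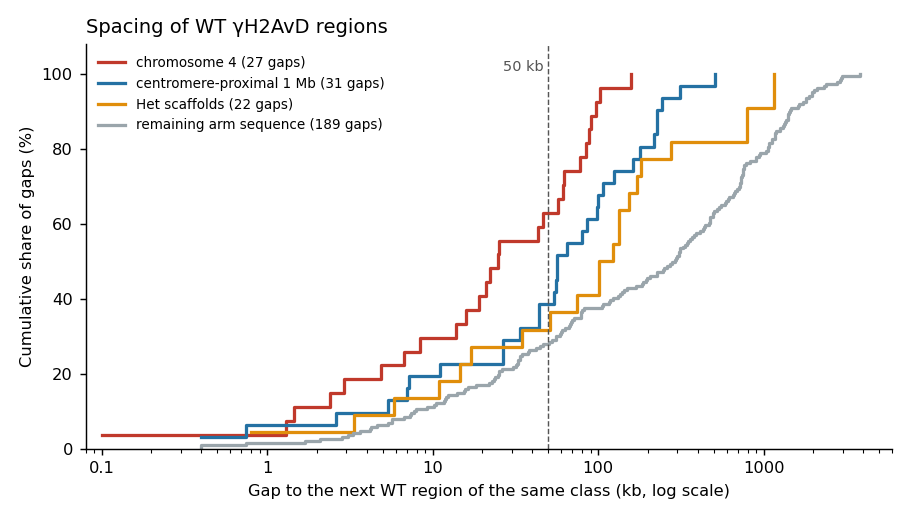
Cumulative share of gaps (vertical axis, %) by the gap from the end of a WT region to the start of the next region of the same class (horizontal axis, kb, log scale), for 4 sequence classes, with a dashed line at the 50 kb linking distance. The medians run from 24.8 kb on chromosome 4 to 291 kb in the remaining arm sequence, whose curve has a long tail up to 3.82 Mb.

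Long stretches of each arm held no WT region. Between neighbouring regions the longest on each arm was 3.82 Mb on 3L, between 7375301 and 11198700, 2.98 Mb on X, 2.95 Mb on 3R, 2.78 Mb on 2L and 2.09 Mb on 2R. The distal end of 2L was bare over a longer stretch, 3.32 Mb, and that of X over 1.94 Mb, whereas 3R had a region 0.0270 Mb from its distal end, at 27877451 to 27878750, with 250 ChIP and 78 input reads (3.21, 2.48 to 4.19). Of the full 1 Mb bins, 9 of 23 were empty on 2L, 9 of 22 on X, 7 of 24 on 3L, 7 of 27 on 3R and 2 of 21 on 2R. Absence from the list says only that no window there passed the caller.

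Neighbouring regions were more alike in input than in ratio. For 89 pairs of neighbours at most 50 kb apart, the rank correlation (Spearman) was 0.639 for input reads and 0.209 for the ratio. For 110 pairs over 50 to 500 kb apart it was 0.425 for input and 0.263 for the ratio. For 77 pairs over 500 kb apart, without U and Uextra, it was 0.251 for input and 0.115 for the ratio. The ratios of neighbours differed by a median of 1.40 fold in the closest pairs, 1.32 fold in the middle ones and 1.46 fold in the most distant, so likeness in ratio did not follow distance in order. All of these pairs come from the same 2 libraries, and pairs in a cluster share members. Input also differed by sequence, with medians of 62 reads on chromosome 4, 72 on X and 101 in the remaining autosomal arms. The longest gap of chromosome 4 was 158.9 kb, so the most distant pairs hold none of its regions. Distance and sequence were not separated here. The closest pair of chromosome 4 is one case of neighbours with unlike ratios.

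The remaining arm sequence held most of the list, 194 regions, with a median ratio of 2.45. A ratio of at least 4 was reached by 26 of them (13.4%, 8.95 to 19.0), against 21.9% of the whole list. The strongest was at 8537501 to 8539100 of 3R. With 815 ChIP and 131 input reads it had the most ChIP reads of the list and the third highest ratio (6.22, 5.17 to 7.54), in a neighbourhood with no other region for 2.95 Mb on one side and 947 kb on the other. The strongest regions of the other arms were at 16534201 to 16535400 of X (372 ChIP and 63 input reads, 5.90, 4.51 to 7.84), 24020851 to 24022100 of 3L (393 and 73, 5.38, 4.18 to 7.01), 6455401 to 6456700 of 2L (342 and 65, 5.26, 4.03 to 6.97) and 2898951 to 2900150 of 2R (391 and 79, 4.95, 3.88 to 6.39). That of 3L lay in the proximal 1 Mb, and the 30 regions of the remaining 3L sequence included none with a ratio of at least 4.

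X differed from the autosomal arms in input. The 33 regions of the remaining X sequence had a median of 73 input reads, against 101 at 161 regions of the autosomal arms, and a median of 206 ChIP reads, against 230.0. Their median ratio was 2.79 against 2.31. At over 50 to 75 input reads the median ratios were 3.16 at 14 regions of X and 3.03 at 19 autosomal ones, and at over 75 to 100 they were 2.44 at 12 and 2.75 at 58. With at most 50 input reads they were 3.21 at 4 regions of X and 2.60 at 3 autosomal ones, and with over 100 to 125 they were 3.19 at 3 and 2.06 at 43. X was thus higher in 3 of the 4 intervals, and not at over 75 to 100 reads. S2 cells are of male origin and have unequal numbers of chromosome copies, and the part of copy number in these input counts was not tested.

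Wider regions had more ChIP reads and higher ratios, but not more input reads. Over the 297 regions the rank correlation of width was 0.763 with ChIP reads, 0.736 with the ratio and -0.0188 with input reads, all within the same 2 libraries. The caller set the width from the same reads, so width and ratio are not independent measures. The 67 regions of at most 800 bp had a median of 175 ChIP and 100 input reads and a median ratio of 1.73, and the 22 regions over 1500 bp had 380 and 107 reads and a ratio of 4.05. Input reads that do not grow with width are not what a count over the whole region would give, and the sources used here do not say whether the counts span the whole region. Counts were therefore not divided by width.

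Widths had a lower limit and a common value. They ran from 550 to 2950 bp in steps of 50 bp, the step of the caller's window, with a median of 1100 bp. Of the 297 regions, 109 were 1050 to 1200 bp wide. No region of at most 800 bp reached a ratio of 4, against 23 of the 44 that were 1250 to 1500 bp wide and 13 of the 22 wider ones. The 3 widest regions lay on 2LHet, on proximal 2L, at 22428951 to 22431500 (2550 bp, ratio 3.36), and on 2RHet, at 2899951 to 2902250 (2300 bp, ratio 4.64). Among the regions at the lowest width, 550 bp, the 3 with the most ChIP reads, on 2R, 3R and 3L, had ratios between 1.46 and 1.51. Other regions of 550 bp had higher ratios, up to 2.84 on U.

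**Figure D4:**
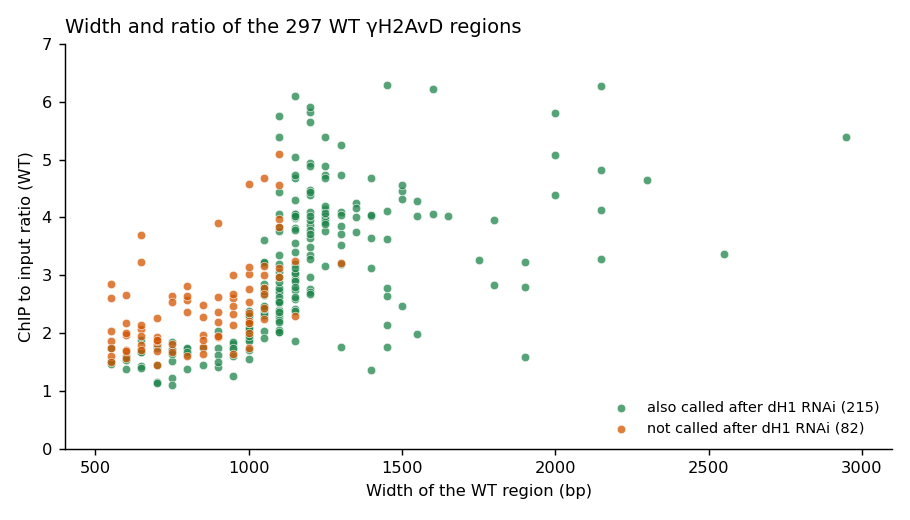
ChIP to input ratio in the WT libraries (vertical axis) against the width of the WT region in bp (horizontal axis), with regions also called after dH1 RNAi in green and the others in orange. Ratios climb from a median of 1.73 at up to 800 bp to 4.05 over 1500 bp, and all 22 regions over 1500 bp were called again, against 72.4% of the whole list.

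The summit, the position the caller marks as the top of a region, lay near the middle of most WT regions. Each region listed 1 summit, and none lay closer than 275 bp to an edge. The median distance from the centre was 50 bp, and 278 regions (93.6%) had their summit within 200 bp of it. The summit lay before the centre by coordinate in 140 regions, after it in 125 and on it in 32. This edge distance limits how far off centre a summit can be: it allows at most 275 bp at the median width, and no more than 200 bp in regions of up to 950 bp. Much of the centring is therefore fixed by width. Of the 198 regions wide enough for an offset over 200 bp, 19 had one, 17 of them among the 22 regions over 1500 bp. In 13 of these 22 the summit lay before the centre, as on 2LHet.

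A small group of WT regions had high counts in both libraries. Of the 7 regions with over 200 input reads, 3 lay on Uextra, and 1 each on 3RHet, on proximal 2R, on 2L and on 3L. The most extreme was at 1523901 to 1524650 of 3RHet, with 608 ChIP and 551 input reads (1.10, 0.982 to 1.24), the lowest ratio of the list. Next came 25090351 to 25091050 of Uextra, with 448 and 391 reads (1.15, 0.998 to 1.32). On 2R the region at 943051 to 943800 had 456 and 374 reads (1.22, 1.06 to 1.40). These 7 regions had at least 297 ChIP reads and included the 5 lowest ratios of the list. All 7 were called again after dH1 RNAi, against 72.4% of the whole list. At those 5 the dH1 RNAi pair had fewer ChIP than input reads, with ratios between 0.629 and 0.865. The regions on 2L and 3L had slightly more, with 166 ChIP and 156 input reads on 2L and 150 and 145 on 3L. Fewer ChIP than input reads were not particular to this group. At 10720301 to 10721050 of 3R, with 102 input reads in WT cells, there were 101 ChIP and 117 input reads after dH1 RNAi. Being called again thus means only that an overlapping region was listed, and not that ChIP reads exceeded input reads there. In the rest of the unplaced sequence there were 9 regions, of which 3845901 to 3847000 of Uextra had the highest ratio, with 194 ChIP and 36 input reads (5.39, 3.76 to 7.92).

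The dH1 RNAi pair of libraries, which shares no library with the WT pair, gave a second list of 1563 regions in which to look for the WT regions. Of the 297 WT regions, 215 (72.4%) overlapped a dH1 RNAi region by at least 1 bp. Whether a WT region was called again followed its ChIP count. Of regions with at most 150 WT ChIP reads 1 of 22 was called again, of those with over 150 to 200 reads 27 of 72, with over 200 to 250 reads 52 of 66, and with over 250 to 300 reads 35 of 37. All 100 regions with over 300 reads were called again. The regions called again were wider, with a median of 1150 bp against 850 bp for the others, and they had more input reads, with a median of 101 against 73.

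On chromosome 4, 16 of 28 regions were called again (57.1%, 37.2 to 75.5), and on X 20 of 34 (58.8%, 40.7 to 75.4). Both counting intervals hold the 72.4% of the whole list. The 12 chromosome 4 regions not called again had between 129 and 219 ChIP reads. The share was not ordered by ratio alone: with the regions ranked by ratio, it was 52 of the lowest 74, 38 of the next 74, 56 of the next 74 and 69 of the highest 75. All 49 regions with a false discovery rate under the highest listed value, 0.043, were called again.

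Where a WT region was called again, its summit was mostly found at the same place. The summits of the 215 pairs, whose regions overlap by construction, were a median of 50 bp apart, 60 pairs had an identical summit and 180 (83.7%) lay within 200 bp. In 12 pairs they were over 500 bp apart, and in 9 of those the dH1 RNAi region was wider than 1500 bp. The ratio orders of the lists were alike, with a rank correlation of 0.794 over the 215 pairs, and that of input reads was 0.781. Width was less alike, with 0.340, and the median width of the paired regions was 1150 bp in both the dH1 RNAi and the WT list.

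**Figure D5:**
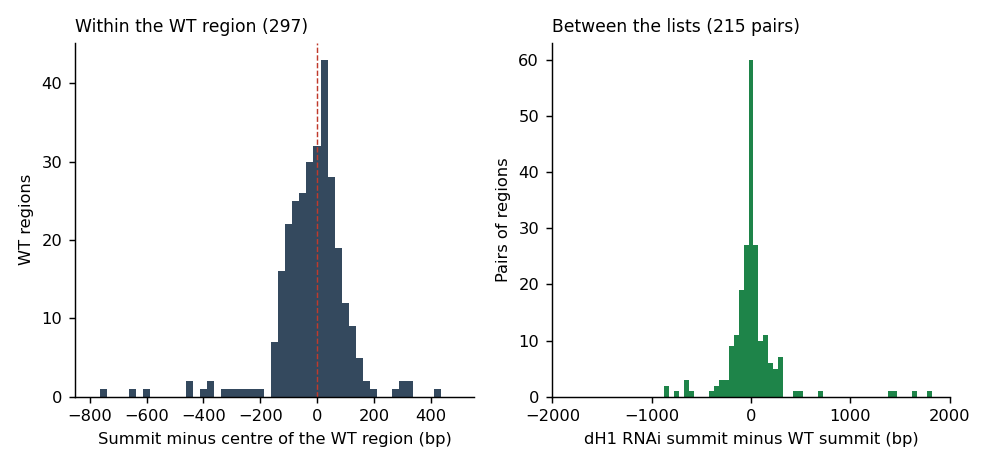
Left, number of WT regions (vertical axis) by the distance of the summit from the centre of the region in bp (horizontal axis). Right, number of pairs (vertical axis) by the dH1 RNAi summit minus the WT summit in bp (horizontal axis). Both distributions peak at or next to 0, with 278 of 297 summits within 200 bp of the centre, where the edge distance of 275 bp limits the offset, and 180 of 215 pairs within 200 bp of each other.

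At the 5 WT regions with the highest ratios the values of both conditions can be set side by side. At 1047201 to 1048650 of chromosome 4 there were 200 ChIP and 70 input reads after dH1 RNAi, against 497 and 79 in WT cells, and the summits were identical. At 197051 to 199200 of 2RHet there were 132 and 70 reads after dH1 RNAi, against 439 and 70 in WT cells, and the summits were 400 bp apart. At 8537501 to 8539100 of 3R there were 305 and 67 reads after dH1 RNAi, against 815 and 131 in WT cells, with the same summit. ChIP counts were lower after dH1 RNAi at these 3 and at the regions given next. Over all 215 pairs the dH1 RNAi ChIP count divided by the WT ChIP count had a median of 0.434. The median ratio of the paired regions was 1.58 after dH1 RNAi and 2.94 in WT cells. With depth unknown and 1 library per group no direction is drawn from these values. At 887151 to 888300 of chromosome 4 there were 146 and 41 reads after dH1 RNAi, against 329 and 54 in WT cells. At 16534201 to 16535400 of X there were 155 and 48 reads after dH1 RNAi, against 372 and 63 in WT cells. The summits of these last pairs were each 100 bp apart. The high-input region of 3RHet, 750 bp wide in WT cells, overlapped a dH1 RNAi region of 7300 bp with 379 ChIP and 603 input reads.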

How the data were processed

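The WT list was used whole. The submitters' processing notes name FastQC 0.10.1, Bowtie 0.12.5 and dm3. The authors called regions from duplicate-marked alignments with PeakRanger 1.16 in its CCAT mode, per the file headers. The headers give windows of 500 bp moved by 50 bp, a minimum of 4 reads and a minimum fold of 3 per window, read extension to 200 bp and a false discovery rate limit of 0.1. The median ratio of the listed regions, 2.65, is under that fold. The ratio used here is therefore not to be read as the fold that the caller applied. The authors deposited whole-number counts of ChIP and control reads per region, without normalization. The deposited false discovery rate, which stands in for a p-value or q-value, took only 3 values in the WT list and was used to describe and filter regions. A summit position per region was deposited as well.

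Ratios, gaps (end to start of the next region), clusters (gaps of at most 50 kb), summit offsets and overlap (at least 1 bp, partner with the largest overlap) were computed with Python 3.11.15, numpy 2.4.6, pandas 2.3.3 and scipy 1.17.1. Shares have Clopper-Pearson intervals and ratios exact intervals for Poisson counts. Medians have order-statistic intervals over regions or gaps, used only for the alternatives. The centromere-proximal sequence was 1 Mb and the telomeric sequence 100 kb of each arm, and arm ends came from the dm3 sequence lengths as generally known, not from the files. No test was run. Cluster and overlap code was tested on simulated regions. Depth per library is unknown, so precision was judged from the region counts alone. Named regions were those with the highest ratio on each sequence, the 5 highest and 5 lowest ratios, the 3 widest and 3 narrowest, the 3 with most ChIP or input reads, the closest pair and the members of the 5 largest clusters; others were picked after their values were seen. Members, classes, bins and lists were chosen with earlier results of these data known. The alternatives tried were stricter thresholds, merging, other distances and other overlaps.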

Additional observations from a re-analysis of the deposited data

How the results depend on the processing

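Of 82 alternative values, 60 stayed and 22 moved. Some of the 60 could not move. A planned false discovery rate limit under the caller's own kept every WT region, and the other summit choices left the summits unchanged. Only the heterochromatin difference given below was checked for a change of direction, and it kept its direction. A count moved when it changed by over 1.5 times, and a share, median or difference of medians when it left its interval over the whole list. The lists below a false discovery rate (FDR) of 0.043 and those with at most 200 input reads were chosen after seeing the data. No paired analysis was possible because there was 1 library per group. With ChIP reads of at least the list median, 149 regions were left, with a median ratio of 3.75, a median width of 1200 bp, 17.4% in centromere-proximal sequence and 98.0% overlapping dH1 RNAi regions. With an FDR below the highest value listed, 49 regions were left, with a median ratio of 4.39, a width of 1300 bp and a gap of 556 kb. Of them 28.6% were in clusters, 14.3% lay on chromosome 4 and 100% overlapped dH1 RNAi regions. Chromosome 4, the Het scaffolds and the proximal 1 Mb, 90 regions of the whole list, were also pooled as assembled heterochromatin. With this FDR limit its median ratio minus that of the remaining arm sequence was 0.467 (range -0.854 to 1.34, which includes 0). The difference was 1.35 (0.476 to 1.73) over the whole list, and 0.814 (0.105 to 1.36) with the ChIP limit. These ranges join opposite ends of the intervals of the 2 medians over regions. They are not exact 95% intervals. Merging regions under 10 kb apart gave a median gap of 228 kb. The clustered share was 23.2%, 58.9% and 70.4% at 10, 100 and 200 kb, and 27.9% for clusters of 3 or more. The centromere-proximal share was 6.40% with 0.5 Mb and 23.9% with 2 Mb. Weighted by width the median ratio was 2.98 (2.65 as reported). Requiring the overlap to span 50% of both regions left 64.6% of WT regions with a dH1 RNAi partner. The cause of these moves was not tested. The depth of the libraries is unknown, which limits every ratio.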

Other observations

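Over the whole list, 9.43% of regions lay on chromosome 4, 8.75% on Het scaffolds, 12.1% in the proximal 1 Mb, 65.3% elsewhere on the arms and 4.04% on unplaced sequence. Of the 30 WT regions with the highest ratios, from 4.57 to 6.29, 10 lay on chromosome 4, 7 on Het scaffolds, 3 near a centromere, 9 elsewhere on the arms and 1 on unplaced sequence. Their median width was 1250 bp and their median input 64 reads. Of the 30 with the lowest ratios, from 1.10 to 1.63, none lay on chromosome 4, 1 on a Het scaffold, 3 near a centromere, 22 elsewhere on the arms and 4 on unplaced sequence. Their median width was 725 bp and their median input 153.5 reads. Overlap with a dH1 RNAi region was found for 27 of the highest and for 24 of the lowest, against 72.4% of the whole list. The lowest were thus near the whole list in their share elsewhere on the arms, and both ends in their share near a centromere.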
